A study of Mus musculus with 36 samples.

Results

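The transcription factors of the primitive streak and the early mesoderm were followed through the differentiation of Xmas mouse embryonic stem cells (mESCs). The 7 genes are the T-box factors T (brachyury), Eomes and Tbx6, the homeobox factors Mixl1, Gsc and Evx1, and the basic helix-loop-helix factor Mesp1. They were chosen by name with earlier results of these data known. All 7 have a row among the 25965 gene rows of the deposited expression table. Xmas mESCs are female C57/Bl6 lines, derived by crossing mice with different reporters, that carry GFP at Hprt on one X chromosome and mCherry at Hprt on the other. The lines were grown in 2i with LIF, a medium that keeps mESCs in the naive state, and then weaned stepwise into DME HiHi, a serum medium without LIF. RNA-seq was done each day from day 0 to day 8 with 4 libraries a day, 36 in all. Each day has 1 library from each combination of a line (X14 or X18) and a label (double or single). What these 2 labels stand for is not explained in the sources, so they serve as names only. The paper takes mESCs double positive for the reporters as XX and single positive ones as XO. Whether the 2 labels refer to this is not stated and was not tested. The 9 libraries that share a line and a label are called a culture here.

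In the mouse embryo, the primitive streak is the site where epiblast cells leave the epithelium and become mesoderm and definitive endoderm. Wnt3, Nodal and BMP4 signals induce T and Eomes there, T is then kept on by Wnt and FGF signals, and Eomes acts with Nodal signalling and is needed for endoderm and for the onset of Mesp1. Mixl1 and Gsc mark the streak and its anterior end, Evx1 its posterior part, Mesp1 the earliest cardiac and head mesoderm, and Tbx6 the paraxial mesoderm that forms somites.

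The 250 bases before the RefSeq start of T, Eomes and Tbx6 are shown because these are the T-box members and because T and Eomes carried most of the reads of the 7 genes. The T window is chr17:8434173-8434422 on the plus strand, the Eomes window chr9:118477939-118478188 on the plus strand and the Tbx6 window chr7:126781233-126781482 on the plus strand, from RefSeq on GRCm38.p6, whose coordinates are those of mm10. Capitals mark matches to the 4 motifs searched.

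T: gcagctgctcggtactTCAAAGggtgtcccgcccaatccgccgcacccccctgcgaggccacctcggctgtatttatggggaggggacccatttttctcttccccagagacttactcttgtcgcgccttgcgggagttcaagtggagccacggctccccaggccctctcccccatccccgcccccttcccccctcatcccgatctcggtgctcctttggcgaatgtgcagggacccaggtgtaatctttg
Eomes: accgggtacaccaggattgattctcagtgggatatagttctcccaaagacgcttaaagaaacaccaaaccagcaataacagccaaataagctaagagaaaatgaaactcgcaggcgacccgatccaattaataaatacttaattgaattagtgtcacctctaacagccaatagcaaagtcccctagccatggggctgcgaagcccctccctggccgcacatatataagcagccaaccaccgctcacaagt
Tbx6: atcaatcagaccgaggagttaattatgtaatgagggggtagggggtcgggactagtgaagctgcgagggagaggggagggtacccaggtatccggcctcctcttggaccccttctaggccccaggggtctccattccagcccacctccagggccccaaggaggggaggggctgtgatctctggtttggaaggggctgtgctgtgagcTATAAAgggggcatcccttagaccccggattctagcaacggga

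The motifs were TCACACCT, the core bound by T-box factors, CTTTGA, bound by TCF and LEF factors of the Wnt pathway, AATNCACA, bound by FOXH1 of the Nodal pathway, and TATAAA, the TATA box. Both strands were searched, and no match overlapped another. The T window held 1 TCF/LEF match, on the minus strand 229 to 234 bases before the start, and the Tbx6 window 1 TATA box 38 to 43 bases before the start. The Eomes and Evx1 windows held no match. The Mesp1 window held 2 TCF/LEF matches and the Gsc window 1 TATA box, but both RefSeq starts lie inside the gene as the deposited table draws it. Windows of 6 of the 7 genes were matched by symbol, all but Mixl1. Of 32851 such windows across the genome, 1.12% held the T-box core, 13.8% the TCF/LEF motif, 3.18% the FOXH1 motif and 12.4% the TATA box. A match is a description of these letters and not a binding site.

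All 7 genes are annotated as protein coding in GENCODE M21. In mm10 T lies at 17:8434423-8442496, Eomes at 9:118478212-118486132, Tbx6 at 7:126781483-126785560, Mixl1 at 1:180693043-180697034, Gsc at 12:104471209-104473327, Evx1 at 6:52313498-52318378 and Mesp1 at 7:79792241-79793788. Values cover exons only. An antisense gene overlaps Eomes (Gm33460, 9:118485559-118489099) and Evx1 (Evx1os, 6:52308389-52314832). Whether counting used the strand is not stated, so reads of each pair cannot be told apart.

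Libraries held 612740 to 2445826 reads in genes, so the 3 reads taken as the floor stand for 1.04 to 3.90 reads per 1000000 reads (RPM). Floors and counting intervals cover counting error only, because the reads carry no molecular identifiers. The X14 libraries of day 0 stand apart. X-linked expression relative to autosomes was 1.14 lower on the log2 scale in the X14 library labelled double than in the one labelled single on day 0 (double minus single -1.14), whereas the same difference was 0.25 to 1.05 on the other days and in X18. Whether the labels of these 2 libraries are exchanged was not tested, so values that pair day 0 with later days by label depend on them. Calls of the members against day 0 and counts of the lists were also made without the 2 libraries, and are given where a call or a count of calls changes. Of the 12 ES cell markers, 12 were lower on day 8 than on day 0 by the test used for the members and 11 without the X14 libraries of day 0, and their summed level was 4469 to 5808 RPM on day 0 and 450 to 790 RPM on day 8. The 4 libraries of a day come from 2 lines and 2 labels, and libraries of 1 culture on different days are not independent, so p-values measure only the spread between these samples.

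T, the gene whose loss stops posterior mesoderm and notochord formation, was nearly silent up to day 5 and was then switched on in all 4 cultures. Its day 0 libraries held 2 reads in each of X14 and 0 in each of X18. From day 1 to day 5 no library had more than 1 read, and all 12 libraries of days 2 to 4 had 0, which allows up to 3 reads a library. On day 6 T stood at 9.61 RPM in X14 double, 43.2 in X14 single, 9.68 in X18 double and 27.9 in X18 single. It stood at 46.0, 137, 11.1 and 19.4 RPM in the same order on day 7. On day 8 the values were 34.3, 183, 15.7 and 69.0 RPM. Every library of days 6 to 8 was above every library of days 0 to 5, and 12 of the 36 libraries were above the floor, all of them from these 3 days. X14 single was highest on each of the 3 days.

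The mean of T was 22.6 ± 16.2 RPM on day 6, 53.4 ± 57.7 on day 7 and 75.5 ± 75.1 on day 8 (SD, n = 4). Against day 4, which had 0 reads, T was at least 12.3-fold higher on day 6, at least 29.1-fold on day 7 and at least 41.2-fold on day 8, taking 3 reads a library as the floor. Summed over 4 libraries, 519 reads on day 8 faced 4 on day 0, a depth-corrected ratio of 140 with a counting interval of 54.5 to 517. In limma, fitted on the log2 values of 14612 genes with day as the factor, T was 4.37 ± 0.62 (SE) higher than on day 0 on day 6 (adjusted p = 8.85e-07), 5.27 higher on day 7 (adjusted p = 2.39e-08) and 5.85 higher on day 8 (adjusted p = 2.38e-09). Here and in the following, a gene is called when its Benjamini-Hochberg adjusted p over all genes tested is under 0.05 and its log2 fold change at least 1 either way. Because the deposited table gives 0.9 read to genes with none, fitted folds of genes at the floor on day 0 depend on that value and are no bounds. These 3 calls held under each of the 16 alternatives, with log2 fold changes from 3.81 to 6.44. The step from day 5 to day 6 was 4.80 (adjusted p = 2.14e-06), while day 7 against day 6 (0.90, adjusted p = 0.645) and day 8 against day 7 (0.58, adjusted p = 0.903) did not pass. In bulk RNA, more cells that express a gene and more RNA per cell cannot be told apart.

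**Figure D1:**
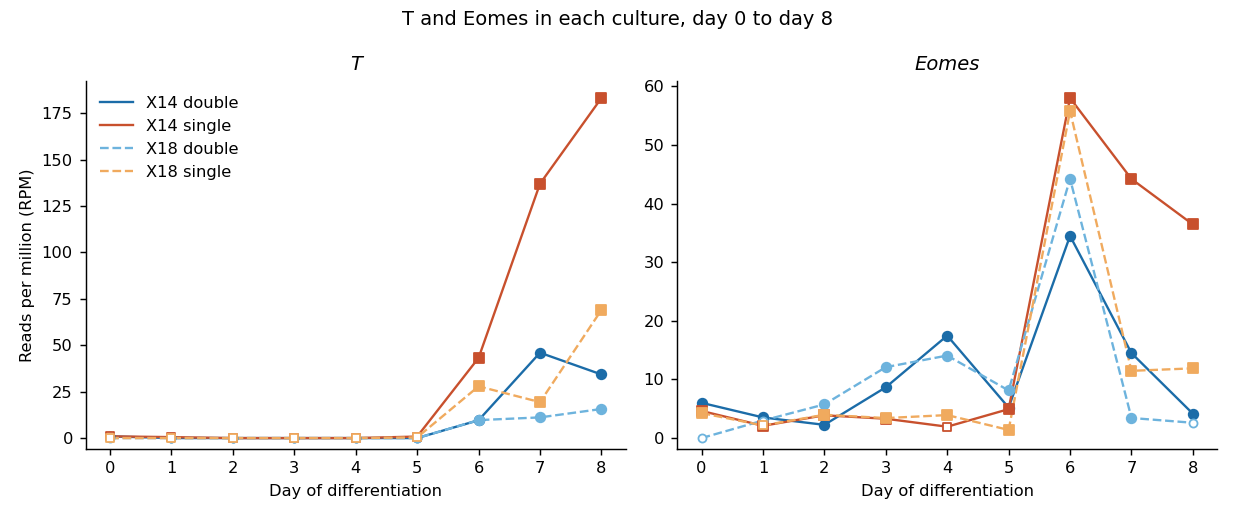
RPM of T (left) and Eomes (right) in each library from day 0 to day 8, 1 line per culture, with filled markers for libraries above 3 reads and open markers for 0 to 3 reads. T leaves the floor on day 6 in all 4 cultures and reaches 183 RPM in X14 single, and Eomes has its highest value of each culture on day 6, between 34.5 and 58.0 RPM.

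Eomes, which starts the mesendoderm programme and is also used by trophoblast stem cells, had a low level from the start and was highest on day 6. Its day 0 reads were 13 in X14 double, 10 in X14 single, 0 in X18 double and 5 in X18 single, or 6.01, 4.63, 0 and 4.27 RPM. On day 6 it stood at 34.5, 58.0, 44.2 and 55.8 RPM in the same order, with a mean of 48.1 ± 10.9 (SD, n = 4). On day 5 the values were 5.20, 4.94, 8.12 and 1.39 RPM. The 4 libraries of day 6 lie above all libraries of days 0 to 5, and Eomes was above the floor in 31 of 36 libraries. The sum of 262 reads on day 6 was 10.7 times that of day 0 after correction for depth, with a counting interval of 7.25 to 16.5.

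After day 6 the values of the cultures spread out. On day 7 Eomes was at 14.5 RPM in X14 double, 44.2 in X14 single, 3.43 in X18 double and 11.5 in X18 single. The day 8 values were 4.15, 36.4, 2.61 and 11.9 RPM, so that X14 single kept most of its level and X18 double returned to 3 reads. Eomes was 3.86 ± 0.75 (SE) above day 0 on day 6 (log2, limma, adjusted p = 1.07e-04) and 3.51 above day 5 (adjusted p = 0.00158). Day 6 was called against day 0 under all 16 alternatives. The call against day 5 was lost only without replicate 4, the X18 single culture (adjusted p = 0.0524). On day 7 Eomes was 1.96 above day 0 (adjusted p = 0.0322), a call lost under 5 of 16 alternatives, leaving out replicate 2 (X14 single) or replicate 4 among them (adjusted p up to 0.121). The difference of day 7 from day 6, -1.90 (adjusted p = 0.256), did not pass, and the day 8 level (mean 13.8 ± 15.6 RPM) was not called against day 0.

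Tbx6, the factor that directs paraxial mesoderm, was close to the floor throughout, with 25 reads in 36 libraries. The day 7 libraries held 7 reads in X14 double and 3 in X18 double (3.50 and 2.57 RPM) and 0 in both libraries labelled single. On day 8 it had 5 reads and 1 read in the libraries labelled double and again 0 in the others. Only 2 libraries, X14 double on days 7 and 8, were above the floor. The fit called Tbx6 on day 7 against day 0 (1.31, adjusted p = 0.0390), and 7 of 14 alternatives lost that call, including each that left out replicate 1, 2 or 3 and the one without the X14 libraries of day 0 (adjusted p = 0.311). With no read on day 0 and 10 on day 7 this is a difference of a few reads.

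Mixl1, a homeobox target of Nodal in the streak, first had libraries above the floor on day 6, as T did, but at a much lower level. On days 7 and 8 its reads lay mainly in X14 single. Its reads were 4, 4, 2 and 2 on day 6 in the order X14 double, X14 single, X18 double, X18 single (2.26, 4.94, 1.38 and 1.24 RPM). They were 5, 13, 1 and 1 on day 7 and 0, 22, 0 and 1 on day 8, which puts X14 single at 11.5 and 10.7 RPM. Before day 6 no library had more than 1 read. All 4 libraries of day 6 carried reads, but no X18 library passed 3 reads on any day. Mixl1 was called on day 6 (1.78, adjusted p = 0.0389) and day 7 (1.75, adjusted p = 0.0404) against day 0 and not on day 8. Unlike for T, day 6 against day 5 did not pass in limma (1.74, adjusted p = 0.0952). The call of day 6 against day 0 was lost under 8 of 15 alternatives, among them leaving out any 1 of the 4 replicates (adjusted p up to 0.392 over all alternatives). The day 7 call was lost under 7 of 15, among them leaving out replicate 1 or 2, the X14 cultures. Each call was lost without the X14 libraries of day 0 (adjusted p = 0.222 and 0.231). Both were also lost without the filter on low values, which Mixl1 passed through libraries of days 6 to 8 alone.

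Gsc, goosecoid, a marker of the anterior streak and organiser, ran the other way. It had 5, 13, 2 and 11 reads on day 0 in the same order (2.31, 6.02, 2.06 and 9.39 RPM) and 3, 3, 5 and 7 reads on day 1. It had 5 reads in all on day 2 and 1 on day 3, and all 8 libraries of days 4 and 5 had 0. Every day 0 library had reads and every library of days 4 and 5 had none. Day 0 was at least 2.70-fold above day 4, with 3 reads a library as the floor. In limma Gsc fell against day 0 by 3.01 on the log2 scale on day 3 (adjusted p = 0.00549), by 2.89 on day 4 (adjusted p = 0.00314), by 2.70 on day 5 (adjusted p = 0.00360) and by 2.32 on day 6 (adjusted p = 0.00948). Each of these 4 calls was lost without replicate 4, the X18 single culture with the highest day 0 level (adjusted p = 0.107, 0.0547, 0.0996 and 0.118). Leaving out the X14 libraries of day 0 kept all 4.

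Gsc carried reads again in line X14 on the last days. The day 7 libraries held 5 reads in X14 double and 11 in X14 single (2.50 and 9.72 RPM), against 0 and 1 in the X18 libraries. On day 8 X14 single had 10 reads, X18 single 1 and the others 0. The fitted difference from day 0 was no longer called on day 7. It was called again on day 8 (-1.75, adjusted p = 0.0459), but 8 of 15 alternatives lost that call, among them leaving out replicate 1, 3 or 4 and leaving out the X14 libraries of day 0 (adjusted p up to 0.215).

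Evx1, a homeobox factor of the posterior streak downstream of BMP and Wnt signals, had its highest mean on day 6. Its reads on day 6 were 5, 7, 1 and 8, or 2.83, 8.64, 0.69 and 4.96 RPM in the order X14 double, X14 single, X18 double, X18 single. On day 7 only X14 single had reads, 3 of them, and on day 8 it had 14 reads (6.80 RPM) while the other cultures had 1, 0 and 1. Earlier, 10 reads were spread over days 1 to 4 in libraries labelled double only, none of them with more than 3. Day 6 stood at least 2.03-fold above day 0, which had no read. Evx1 was called on day 6 against day 0 (2.35, adjusted p = 0.00734) and against day 5 (2.28, adjusted p = 0.0270). The call against day 0 was lost without replicate 2 or 4, both labelled single, and without the X14 libraries of day 0 (adjusted p = 0.0801), and that against day 5 without replicate 1, 2 or 4 (adjusted p up to 0.249).

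Mesp1, the earliest marker of cardiac mesoderm, was detected in 1 library. It had 4 reads in X14 single on day 8 (1.94 RPM) and 0 in the other 35 libraries, so it did not pass the filter of 1 RPM in at least 4 libraries and was not tested. At this depth a level under the floor of 1.04 to 3.90 RPM was not detectable.

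**Figure D2:**
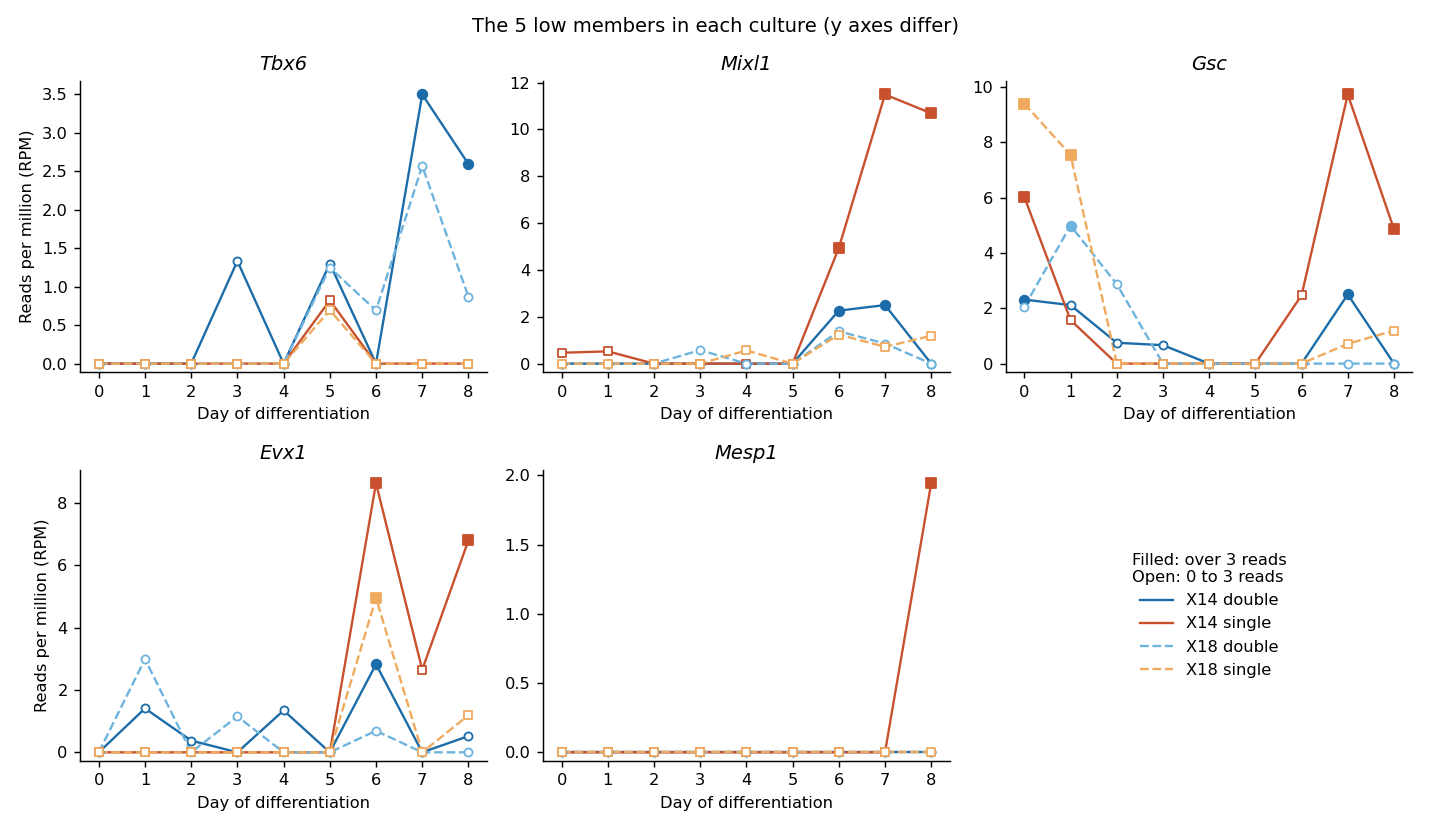
RPM of Tbx6, Mixl1, Gsc, Evx1 and Mesp1 in each library by day, drawn as in the plot of T and Eomes, with a y axis of its own for each gene. Most points are open, which marks 0 to 3 reads. Gsc starts high, is at 0 in all libraries of days 4 and 5 and returns in X14, and Mesp1 is above 0 in X14 single on day 8 alone.

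Counted together, 6 of the 7 members passed the filter, T and Mixl1 through libraries of days 6 to 8 alone. The counts and the median over them are therefore descriptions of these genes. The members and the lists were also chosen with earlier results of these data known. Their shares, set beside those of all genes here and below, are descriptions only. No member was called on day 1 against day 0 (0.0684% of all genes were) or on day 2 (2.96%). At an unadjusted p under 0.05 there were 0 members on day 1 and 1 on day 2, Gsc, and voom in limma on recovered reads also called 0 on both days. Day 3 gave 1 of 6 (8.89% of all genes), day 4 gave 1 of 6 (18.6%) and day 5 gave 1 of 6 (26.8%), each time Gsc, which fell. On day 6, 5 of 6 were called against 33.4% of all genes, with T, Eomes, Mixl1 and Evx1 higher and Gsc lower. On day 7, 4 of 6 were called against 35.4%, T, Eomes, Mixl1 and Tbx6, all higher. On day 8, 2 of 6 were called against 35.0%, T higher and Gsc lower, a share close to the background. Without the X14 libraries of day 0, 3 of 6 were called on day 6, where 41.8% of all genes were. In that setting 2 of 6 were called on day 7 (6291 of 14612 genes) and 1 of 6 on day 8 (42.3%), both below the share of all genes.

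Between neighbouring days, the step from day 5 to day 6 had 3 members called of 6 against 9.72% of all genes. Day 7 against day 6 had 0 (0.890% of all genes) and day 8 against day 7 had 0 (0.438%), with 3 and 0 members at an unadjusted p under 0.05 and 0 in each by voom. Over all 9 days at once, 5 of 6 members differed by the limma F test, where 65.2% of all genes did. The exception was Tbx6. T and Eomes passed under all 14 alternatives. Evx1 (adjusted p = 0.0488) lost this call under 7 of 13, among them leaving out replicate 1, 2 or 4, leaving out the X14 libraries of day 0 (adjusted p = 0.0723) and the replicate block, in which the number of the culture is a factor beside day (adjusted p = 0.0536). Mixl1 (adjusted p = 0.0314) lost it under 6 of 13, among them leaving out any 1 replicate (adjusted p up to 0.192), and Gsc without replicate 4 (adjusted p = 0.0626). The median log2 fold change of the 6 members tested was 2.07 on day 6 and 1.23 on day 8, beside 0.24 and 0.23 over all genes. Under quantile normalization the median over all genes on day 8 moved to 0.00, and no called fold change of a member changed sign under any scaling.

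**Figure D3:**
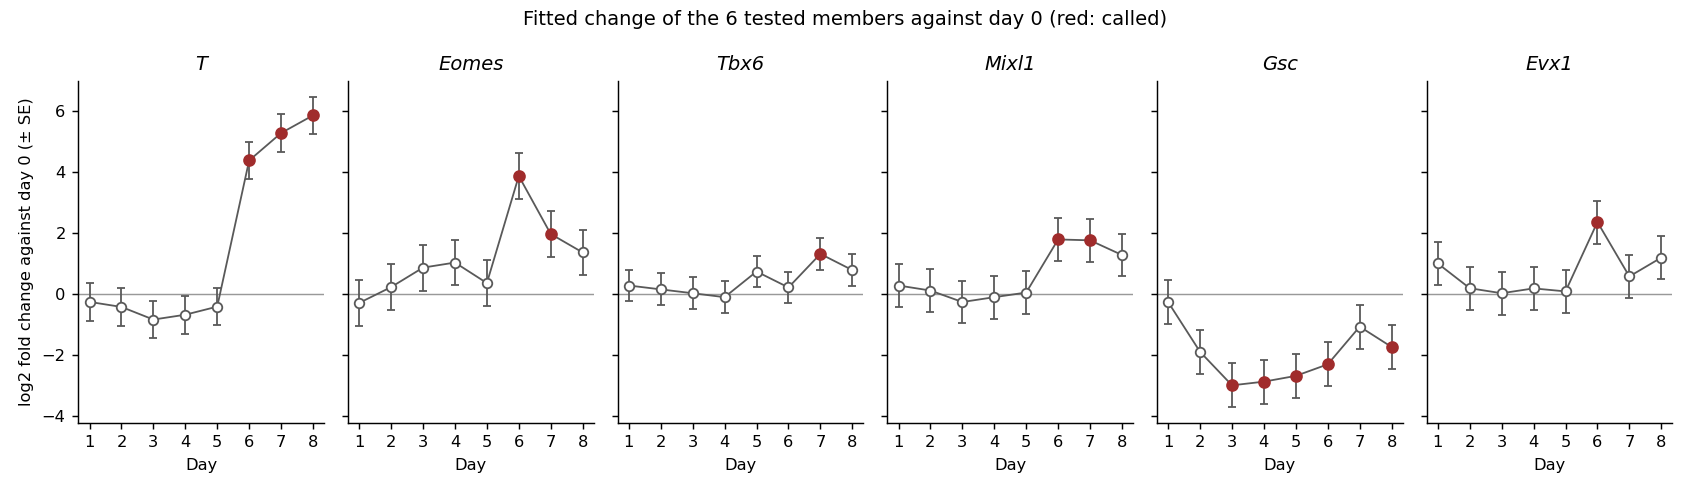
Fitted log2 fold change against day 0 (limma, bars are SE) of the 6 tested members on days 1 to 8, with red points for calls. T is called on days 6 to 8, Eomes and Mixl1 on days 6 and 7, Evx1 on day 6, Tbx6 on day 7, and Gsc lies below 0 on all 8 days and is called on days 3 to 6 and 8.

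Levels can be compared between genes only per length, in reads per kilobase of exon and 1000000 reads (RPKM). On day 0 the highest member was Gsc with 3.91 ± 2.75 RPKM, above Eomes with 0.897 ± 0.625. On day 6 Eomes (11.6 ± 2.63) and T (9.76 ± 7.0) did not differ beyond their spread, and Evx1 (1.49 ± 1.18), Mixl1 (1.07 ± 0.748) and Gsc (0.488 ± 0.976) were lower and did not differ from each other beyond theirs. On day 8 T stood at 32.6 ± 32.4, then Eomes at 3.32 ± 3.77, Mixl1 at 1.29 ± 2.26, Gsc at 1.20 ± 1.82, Evx1 at 0.740 ± 1.10, Tbx6 at 0.480 ± 0.678 and Mesp1 at 0.381 ± 0.762 (SD, n = 4). By the SD between cultures, no neighbours in that order of day 8 differed beyond their spread. Within every culture, however, T was above Eomes. In the X14 cultures T and Eomes stood at 14.8 and 0.9996 RPKM (double) and 79.1 and 8.77 (single). In X18 they stood at 6.77 and 0.628 (double) and 29.8 and 2.86 (single). Eomes was also above Mixl1 in every culture, with only 3 Eomes reads in X18 double. The other neighbours had no such order in all cultures. These paired differences were not tested. X14 single held the highest day 8 value of each of the 7 genes but Tbx6.

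The question of how the course depends on label and line rests on 2 cultures a side. Over all 9 days, limma with day and line as covariates called 0 of 6 members between double and single, where 2.99% of all genes were called, and 0 of 6 between X18 and X14, where 0.0137% were. At an unadjusted p under 0.05 there was no member in either, and voom called T for the label (-1.42, double minus single, adjusted p = 9.86e-05) and 0 for the line. The day by label interaction was called for 0 of 6 members (0.985% of all genes) and the day by line interaction for 0 of 6 (0.0137%). Unadjusted p was under 0.05 for Eomes (0.00149, adjusted 0.0925) and Evx1 (0.0305, adjusted 0.380) by label and for none by line. Without the filter on low values Eomes passed by label (adjusted p = 0.0492), and voom called 0 in both.

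When only days 6 to 8 were used, a choice made after seeing the data, 3 of 6 members were lower in libraries labelled double, where 6.30% of all genes were called. T was at -1.77 ± 0.29 (log2, double minus single, SE, adjusted p = 9.24e-04), Eomes at -1.63 ± 0.38 (adjusted p = 0.00967) and Evx1 at -1.85 ± 0.47 (adjusted p = 0.0158). T and Eomes were higher in single than in double in 6 of 6 pairs of the same line and day, and Evx1 in 5 of 6 with 1 pair at 0. Averaged over the 3 days, T was at 30.0 RPM in X14 double and 12.2 in X18 double against 121 and 38.7 in X14 and X18 single. For Eomes these means were 17.7 and 16.8 against 46.2 and 26.4 RPM. With 2 cultures against 2, an exact two-sided permutation test cannot go below p = 0.333, which is the value for T, Eomes, Evx1 and Tbx6. Tbx6 had the opposite order, with 1.70 RPM on average in double and 0 in single, at 0.93 ± 0.47 in the fit (adjusted p = 0.195).

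By line, over the same days, 0 of 6 members were called (0.0547% of all genes), although 4 had an unadjusted p under 0.05. All of these were lower in X18, with T at -1.34 (adjusted p = 0.0826), Mixl1 at -1.78 (adjusted p = 0.133), Gsc at -1.43 (adjusted p = 0.165) and Eomes at -1.0 (adjusted p = 0.184). Mixl1 averaged 1.59 and 9.04 RPM in the X14 cultures and 0.746 and 1.05 RPM in the X18 cultures. Gsc averaged 0.833 and 5.68 RPM in X14 and 0 and 0.636 RPM in X18.

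**Figure D4:**
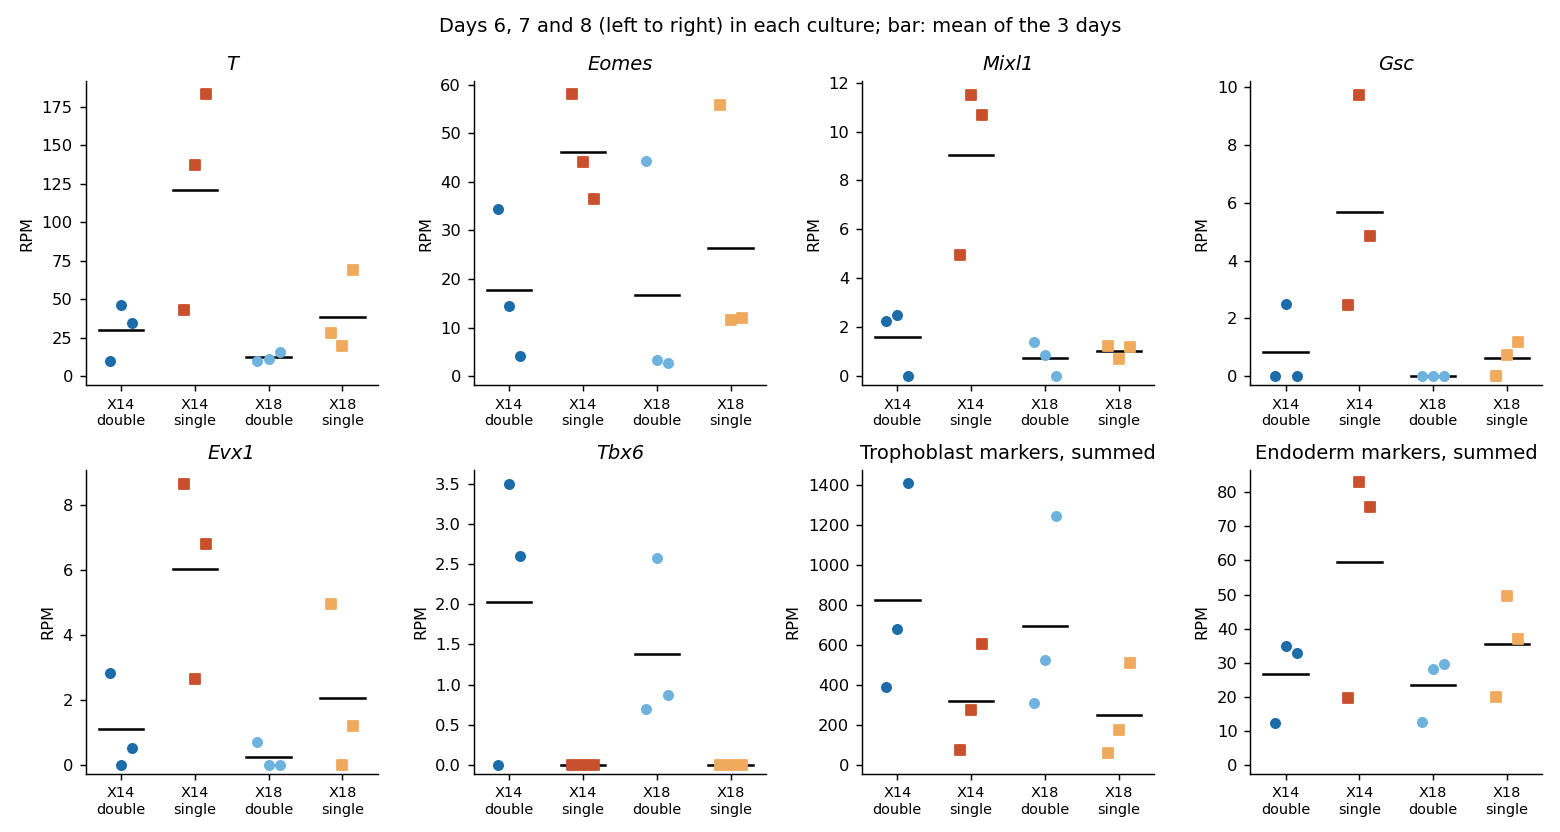
RPM on days 6, 7 and 8 in each culture for 6 members, with a bar at the mean of the 3 days, and the summed RPM of the trophoblast and endoderm marker lists. T and Eomes are higher in the cultures labelled single, Mixl1 and Gsc are highest in X14 single, and the trophoblast sum is higher in the cultures labelled double (up to 1410 RPM).

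Over days 3 to 5 the order of Eomes by label was the reverse. Over days 0 to 2 it was mixed, with double higher than single in 4 of 6 pairs. On day 3 Eomes stood at 8.67 and 12.1 RPM in the libraries labelled double and at 3.30 and 3.41 RPM in those labelled single. On day 4 it stood at 17.5 and 14.1 RPM against 1.94 and 3.92 RPM. On day 5 X14 double held 4 reads and X14 single 6 (5.20 and 4.94 RPM), so the order of that pair rests on depth alone. In RPM, double was higher than single in 6 of 6 pairs over days 3 to 5, and in 0 of 6 over days 6 to 8. Nodal, a ligand upstream of Eomes that was singled out after its values were seen, had the same order in 6 of 6 pairs over days 3 to 5 and the opposite one in 6 of 6 over days 6 to 8. Its day 4 values were 114 and 112 RPM in double against 51.1 and 46.5 RPM in single.

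Some markers of other cell types also changed on these days. Of the 10 trophoblast markers 8 were tested, and 6 were called higher on day 6 and 7 on day 8, with Plac1, Krt7, Hand1 and Gata3 leading. These are 75% and 87.5% of those tested, beside 33.4% and 35.0% of all genes. Without the X14 libraries of day 0, 4 of 8 were higher on day 6, where 41.8% of all genes were called. Before differentiation, on day 0, the 4 libraries had summed levels between 83.2 and 142 RPM. The day 6 sums were 387 (X14) and 308 RPM (X18) in double, above that range, and 72.8 and 57.6 RPM in single, below it. By day 8 all cultures were above it, with 512 RPM as the lowest sum and 1410 RPM as the highest. Over days 6 to 8 it was higher in double than in single in 6 of 6 line and day pairs, opposite to Eomes. Over days 3 to 5 it was also higher in double in 6 of 6 pairs, the order of Eomes on those days. The sum was falling then, with a median of 106 RPM on day 0 and of 104, 57.2 and 37.0 RPM on days 3, 4 and 5. Of the 8 markers tested, 1 was called higher on day 4 (Ascl2, 3.34) and 1 lower (Tfap2c, -3.26). The label order of days 3 to 5 thus does not mark a rise of the list. Tpbpa, a marker of the placental spongiotrophoblast, had no read in any library and Elf5 had 6 reads in all. Of the 14 endoderm markers 6 were tested, and 2 were called higher on day 8 (Dab2 and Foxa2). This share of 33.3% is close to the 35.0% of all genes called that day. The endoderm sum was 28.3 to 83.1 RPM on day 7, highest in X14 single. It was higher in single than in double in 6 of 6 pairs over days 6 to 8. Ttr and Apoa4 had no read. Of 10 neural markers 5 were tested, with 1 higher and 1 lower on day 8, a share of 40% that is also close to that of all genes. The neural sum was 57.1 to 89.9 RPM that day. The part of these cells in the members' values was not tested.

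The signals that induce the streak were examined through a list of 21 genes of the Nodal, Wnt, BMP and FGF pathways, 20 of which were tested. On day 4, 7 were called higher and 1 lower, on day 6, 12 and 2, and on day 8, 11 and 4. Those shares of the tested genes stand beside 18.6%, 33.4% and 35.0% of all genes called on these days. The median log2 fold change was 1.55 on day 6 and 1.32 on day 8, beside 0.24 and 0.23 over all genes. Without the X14 libraries of day 0, 41.8% of all genes were called on day 6 and 42.3% on day 8 (median over all genes 0.38 and 0.39). The signals then had 7 higher and 1 lower on day 4, 13 and 1 on day 6 and 13 and 3 on day 8. Wnt3, the ligand needed to form the streak, rose with T from 0 reads on day 0 to a mean of 23.5 ± 2.55 RPM on day 6 (5.30 ± 0.44, adjusted p = 1.88e-11, at least 11.2-fold). Wnt8a, a streak Wnt ligand, had 0 reads on day 0, 15.5 and 11.3 RPM in double on day 4 against 1.94 and 0.561 RPM in single, and 22.8 to 39.5 RPM on day 6 (5.53 ± 0.78, adjusted p = 9.09e-07, at least 13.4-fold). Fgf8, needed for cells to leave the streak, rose to 20.2, 106, 22.6 and 94.0 RPM on day 8 (6.25 ± 0.58, adjusted p = 1.67e-10), highest in the cultures labelled single as T was. Bmp4 was called on day 6 at a mean of 3.90 RPM (2.32, adjusted p = 6.79e-04) and stood at 17.0 to 25.2 RPM on day 8 (4.82 ± 0.53, adjusted p = 5.45e-09), with values that overlapped between double and single. Over days 6 to 8 Bmp4 was higher in double in 5 of 6 pairs and lower in 1.

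All 12 antagonists of these pathways on the list were tested, with 4 higher and 0 lower on day 6 and 6 higher and 1 lower on day 8 (median log2 fold change 0.82 and 1.16). The day 6 share of 33.3% is that of all genes (33.4%), and without the X14 libraries of day 0 there were 3 higher and 0 lower on day 6 and 4 higher and 1 lower on day 8, shares below and close to that of all genes. Lefty1, a Nodal inhibitor and target, rose on day 6 to 245, 139, 285 and 144 RPM from 15.7 to 35.0 RPM on day 0 (3.01 ± 0.50, adjusted p = 1.26e-05). Dkk1, a Wnt inhibitor of the head organiser, had no read on days 0, 4 and 5 and reached 8.70 to 28.2 RPM on day 8 (4.59 ± 0.56, adjusted p = 3.61e-08, at least 7.51-fold). Fst, an activin inhibitor, rose on day 8 (2.74 ± 0.80, adjusted p = 0.00534), with 35.0 RPM in X14 single and 2.61 to 10.7 RPM in the other cultures. Sfrp1, a secreted Wnt inhibitor, fell by 2.08 on day 8 (adjusted p = 3.73e-04).

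Of 20 partners and targets of the streak factors, 19 were tested, with 6 higher and 2 lower on day 6 and 11 higher and 1 lower on day 8 (median 0.93 and 1.71). These are 42.1% and 63.2% of the list, beside 33.4% and 35.0% of all genes. Without the X14 libraries of day 0 there were 8 higher and 1 lower on day 6 and 9 higher and 1 lower on day 8. Otx2 and Pou3f1, factors of the primed epiblast, rose before T, on day 4 to means of 270 ± 27.4 and 209 ± 92.1 RPM (8.25 and 6.77 on the log2 scale), and 8 of 9 primed epiblast markers were called higher that day, or 7 without the X14 libraries of day 0. Snai1, which drives the epithelial to mesenchymal transition, reached 7.14 to 15.7 RPM on day 8 (4.18 ± 0.54, adjusted p = 1.47e-07). Over days 6 to 8 Snai1 was higher in double than in single in 6 of 6 pairs, opposite to T. Cdx1, a posterior Wnt target, fell from 10.3 to 48.1 RPM on day 0 to 0 reads in all 4 libraries on day 4 (by 5.30, adjusted p = 2.17e-08, at least 13.8-fold lower), the day on which Gsc also had none. Foxa2, Lhx1 and Cer1, genes of the anterior streak and its endoderm singled out after their values were seen, had at most 1 read in any of the libraries of days 0, 4, 5 and 6 and were above the floor in some libraries from day 7. Their day 7 values in X14 single were 29.2, 29.2 and 12.4 RPM, the highest of the 4 cultures, as for Gsc and Mixl1.

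The mesoderm that follows the streak was covered by 32 genes, of which 14 passed the filter, with 5 called higher and 0 lower on day 6 and 8 higher and 1 lower on day 8 (median 0.53 and 1.85). The day 6 share of 35.7% is close to the background of 33.4%, and the day 8 share was 64.3%, beside 35.0%. Without the X14 libraries of day 0, 3 were higher and 0 lower on day 6, below the share of all genes, and 5 higher and 1 lower on day 8, close to it. Those genes are not all particular to mesoderm. Hand1, which is also a trophoblast factor, led with 104 and 73.1 RPM in double and, in single, 32.6 RPM in X14 and 16 reads in X18 on day 8 (6.30 ± 0.80, adjusted p = 9.55e-08), the label order of the trophoblast sum and not that of T. Tbx20, a T-box factor of the heart, rose on day 6 to a mean of 22.2 ± 5.83 RPM (4.10 ± 0.53, adjusted p = 1.77e-07). The Notch ligands Dll1 and Dll3 were called higher by day 4, before T, with Dll1 at 18.8 to 28.2 RPM on day 4 (4.69 ± 0.80, adjusted p = 4.13e-05) and Dll3 at 4.15 to 19.2 RPM on day 6 (3.84 ± 0.77, adjusted p = 1.46e-04). Ripply2, Meox2, Hand2, Nkx2-5, Tbx5 and Osr1, factors of somites, heart and limb or kidney mesoderm, had no read in any of the 36 libraries.

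**Figure D5:**
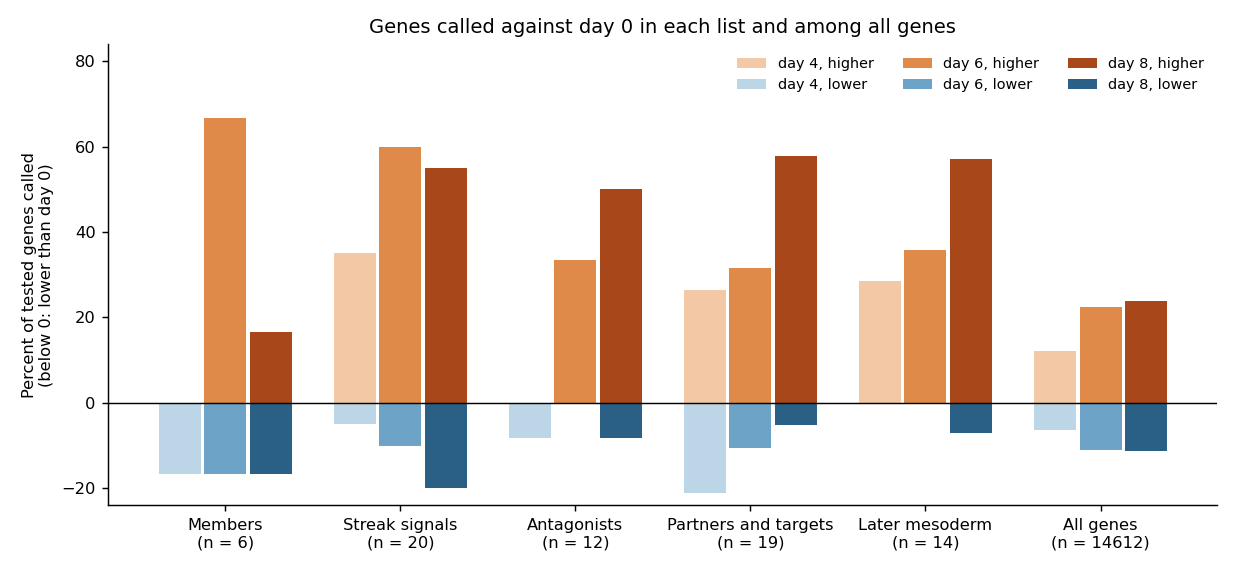
Percent of tested genes called higher (above 0) or lower (below 0) than day 0 on days 4, 6 and 8 in the members, the 4 pathway lists and all genes tested. On day 6 members and streak signals have 4 of 6 and 12 of 20 genes higher.

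Across the 36 libraries the genes most like T in log2(RPM + 1), among 10887 genes with at least 10 RPM on their highest day, were Pcdh7 (Pearson r = 0.97), Cxx1c (r = 0.97) and Fgf8 (r = 0.96). For Eomes they were Wnt8a (r = 0.84), Epb4.1l2 (r = 0.77) and Lefty1 (r = 0.77). T and Eomes had r = 0.64 with each other. These are descriptions over libraries that share days and cultures.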

How the data were processed

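RNA-seq of 36 libraries was analysed from 1 table of the whole series. By the study's methods reads were trimmed, aligned to mm10 and quantified with SeqMonk, and the submitters' processing notes name TopHat2 2.0.12 and bcl2fastq. The strand setting of the counting and the annotation version are not given in the sources used here. The values deposited by the authors are log2 RPKM, with 0.9 read written for a gene without reads. From this rule whole reads were recovered for 99.992% of rows directly (tolerance 0.01 read) and for the remaining 2 rows by a scan of whole exon lengths, and RPM is the deposited value with the length undone. All 36 value columns were mapped to libraries.

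Genes with at least 1 RPM in at least 4 of 36 libraries were tested (14612) with limma 3.58.1 (lmFit, eBayes with trend) in R 4.3.3, two-sided, with Benjamini-Hochberg adjustment over all genes tested. The design had taken the values for log2 RPM, so this filter was also run on the deposited values. Day was the factor for tests over days, and line and label were added for the others. Pathway and marker lists are given by counts, up to 4 called genes with the largest change on days 4, 6 and 8 in genes that reach 10 RPM are named, and the 3 genes most like a member are named by Pearson r. The members and lists were chosen with earlier results of these data known. The script was tested on simulated data. At 10 RPM, the SD from counting was 18.6% of the value at the greatest depth and 36.1% at the least.

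Replicate numbers 1 to 4 mark X14 double, X14 single, X18 double and X18 single on every day by the labels, so they pair libraries across days. The median correlation of deviations from the day means within a number was 0.23 to 0.30, with single pairs as low as -0.73. Alternatives covered the filter, 75th percentile and quantile scaling, log2(RPM + 1), voom, thinning to 612740 reads, leaving out each replicate, the replicate block, fits of 2 days and no minimum fold change. Leaving out the X14 libraries of day 0 (members and lists), days 6 to 8 alone and the filter on deposited values were added after seeing the data.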

Additional observations from a re-analysis of the deposited data

Results flagged for a closer look

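Of 24 groups of 4 libraries with a member above the floor, 3 held a library far from the other 3 by Dixon's test. For normally distributed values chance flags about 1 group in 20. That rate does not apply to groups chosen for a library above the floor whose other libraries hold few reads or none. All 3 were X14 single, with Mixl1 at 11.49 RPM on day 7 and 10.69 RPM on day 8 and Mesp1 at 1.94 RPM on day 8. The other 3 Mesp1 libraries had no read, so that flag was fixed in advance.

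Some changes from day 0 went opposite ways in every library of 2 groups, on the log2(RPM + 1) scale. Eomes minus day 0 averaged 2.09 on day 3 in the X14 and X18 double cultures, while the single cultures averaged -0.32. On day 4 these means were 2.66 and -0.52. X18 double had 0 Eomes reads on day 0, so both means of the double cultures depend in part on that baseline. X14 double had 13 reads on day 0 and 13 on day 3 (6.01 and 8.67 RPM). X18 single had 5 Eomes reads on day 0 and 7 on each of days 3 and 4 (4.27, 3.41 and 3.92 RPM), so its fall rests on depth. For Gsc, X14 double held 5 reads on day 0 and 5 on day 7 (2.31 and 2.50 RPM), a difference of depth at equal reads. Gsc on day 7 was on average 0.35 above day 0 in X14 and -2.10 in X18. That X14 value sets each day 7 library against the day 0 library of the same label, and the labels of the X14 libraries of day 0 go against the order of X-linked expression elsewhere. X14 double on day 7 (2.50 RPM) was below X14 single on day 0 (6.02 RPM), so with the labels exchanged the X14 libraries would not go one way. For Eomes both X14 double values (8.67 RPM on day 3 and 17.5 RPM on day 4) were above both X14 libraries of day 0 and both X14 single values below them. These single-day differences were not tested. Over all days, the limma interaction of day with label gave an adjusted p of 0.0925 for Eomes and that of day with line 0.347 for Gsc.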

How the results depend on the processing

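Among alternative values of the members' called fold changes, 206 kept direction and call, 46 kept direction but lost the call, and 0 turned. Counts of members called are given next. With 1 replicate left out, the count ranged over 0 to 1 on days 3, 4 and 5 (1 in the report), 2 to 4 on day 6 (5), 2 to 3 on day 7 (4), 1 to 2 on day 8 (2), 1 to 3 for day 6 against day 5 (3) and 2 to 4 over all days (5). Under the stricter filter (mean RPM of 10) only T and Eomes were tested, so the count was 0 on days 3 to 5, 2 on days 6 and 7, 1 on day 8 and 2 over all days. Without the X14 libraries of day 0 it was 3 of 6 on day 6, 2 of 6 on day 7 and 1 of 6 on day 8. Of all 14612 genes, 6107 (41.8%), 6291 and 6180 (42.3%) were called on these days in that setting. The members' share was then closer to that of all genes on day 6 and below it on days 7 and 8. Voom gave 2 on day 5, 1 for day 5 against day 4 and 1 for double against single. Quantile normalization gave 1 on day 7, thinning and the fit of 2 days each gave 1 on day 7 and 1 on day 8, and no filter and the filter on deposited values each gave 1 on day 8. Without the filter 1 member passed the day by label interaction, and days 6 to 8 alone gave 3 for the label. With the replicate block, paired by culture, Evx1 over all days lost its call (adjusted p = 0.0536) and no other call changed. The causes were not tested. Depth limits all members but T and Eomes, which mostly had under 10 reads a library.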
